A study of Homo sapiens with 6 samples.

Results

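The calponins, tropomyosins and other thin filament genes examined here were TAGLN, CNN1, CNN2, CNN3, CALD1, SMTN, TPM1, TPM2, TPM4 and LMOD1. The 10 genes were chosen by symbol with earlier results of these data known. Each was found by its NCBI gene ID among the 28395 genes of the count table. The libraries were made from U251MG, an established human glioblastoma line that the labels describe as an astrocytoma from brain. Bulk RNA-sequencing covered 3 WT libraries and 3 NUAK2-CR libraries, and RNA was read after poly(A) selection. In NUAK2-CR cells the kinase gene NUAK2 was targeted by CRISPR-Cas9 from a GFP vector and an mCherry vector, and doubly fluorescent cells were sorted and grown as clones. The labels do not say whether the 3 NUAK2-CR libraries came from separate clones, and the study's text names CR3 among its clones as the one used in later experiments. If all came from 1 clone, the effect of targeting NUAK2 and the differences between that clone and the WT cells cannot be told apart. The control libraries are labelled WT, and the study's methods describe no control vector for U251 cells. Vector transduction, sorting and cloning therefore cannot be told apart from targeting NUAK2, whatever the number of clones. Nothing in the labels says that libraries of a group came from separate cultures, so p-values measure the spread between these libraries, which may be technical.

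Counts on genes summed to 35310946 to 55574081 per WT library and to 29648445 to 33776712 per NUAK2-CR library. NUAK2 itself had 1654 ± 243 normalized counts in WT cells and 869.5 ± 83.2 after targeting (SD, n = 3 each), so its transcript was reduced and not absent. Normalized counts are counts scaled to a common library size. The astrocyte and glioma markers checked for the cell label were mostly present: GFAP had a mean of 88323 normalized counts in WT and 14984 in NUAK2-CR, and VIM had 99737 and 71107. OLIG2 had no count in any library, and AQP4 had 2 counts in each WT library and none in NUAK2-CR. Fold changes are NUAK2-CR over WT, with the standard error (SE) of edgeR's quasi-likelihood fit and p-values adjusted over all 14873 tested genes. At an adjusted p of 0.05, 54.5% of these genes were called, 26.3% higher and 28.2% lower in NUAK2-CR, so a call on its own is common in this comparison. NUAK2 had a log2 fold change of -0.93 ± 0.11 (SE). Its 100 nearest tested genes on chromosome 1 had a median of -0.44, so part of the fall of NUAK2 was also seen in its neighbours. The cause of this regional shift was not tested.

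Thin filaments are polymers of actin with proteins bound along their length. Tropomyosins are coiled-coil dimers that lie along the filament and govern which myosins and severing proteins can reach it. Calponins, the related transgelins and caldesmon bind actin and restrain or stabilize it, smoothelin binds actin in contractile smooth muscle, and leiomodins start new filaments. Many of these genes are classical targets of serum response factor (SRF), which binds a DNA element called the CArG box, and several serve as markers of smooth muscle. Non-muscle cells, astrocytes and glioma cells among them, use the widely expressed members in stress fibers.

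All 10 thin filament genes passed the low-count filter and were called at an adjusted p-value under 0.05, against 54.5% of all tested genes. The genes higher in NUAK2-CR were LMOD1, CALD1, CNN2, TPM4, TAGLN, TPM1 and TPM2, or 7 of 10 against a background of 26.3%. CNN1, CNN3 and SMTN were lower, or 3 of 10 against 28.2%. The call of TPM2 was lost under several alternatives. None of the 10 changed by more than 2 on the log2 scale, the study's cut-off, which 4.72% of tested genes passed. An absolute log2 fold change over 1 was reached by LMOD1, CALD1 and CNN1, or 3 of 10 against 13.9%. The median log2 fold change was 0.40 over the 10 genes and -0.01 over all tested genes. Because the 10 genes were chosen with earlier results of these data known, these counts and medians are description only. In each of the 10 genes the WT and NUAK2-CR libraries did not overlap, which was the case for 61.4% of all tested genes. Small changes are called more readily at high counts, and all of the 10 but CNN1 and LMOD1 had high counts. The shares of all tested genes cover genes of every level that passed the filter, and genes of like level were not compared. In bulk RNA, fewer cells expressing a gene and less RNA per cell cannot be told apart.

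**Figure D1:**
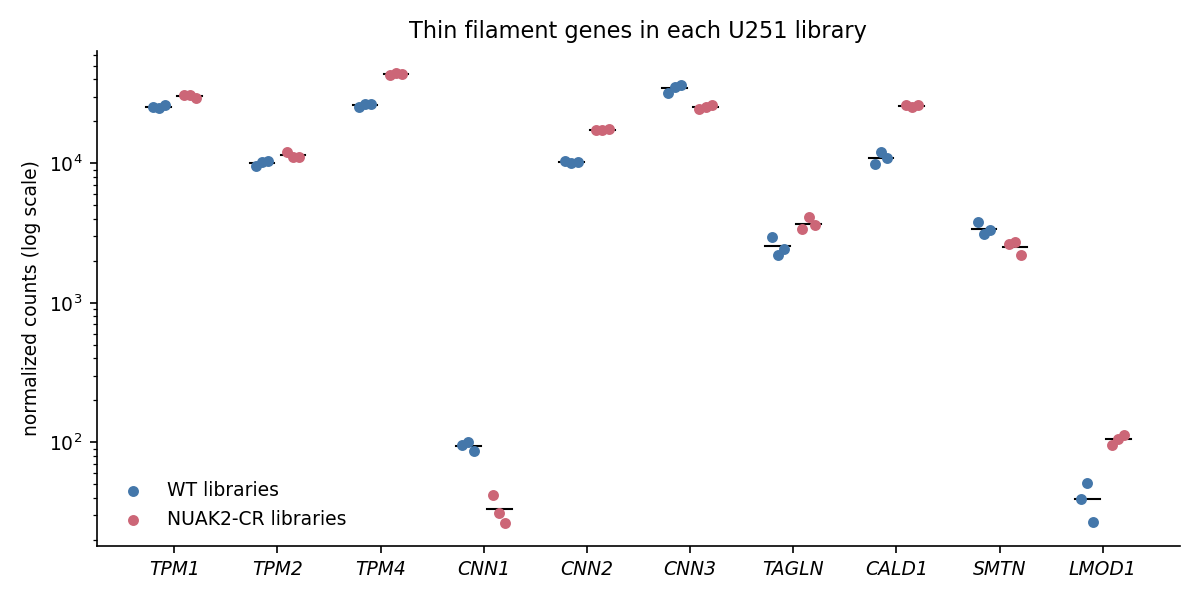
Normalized counts on a log axis for the 10 thin filament genes. Each point is a library, blue for the 3 WT and red for the 3 NUAK2-CR libraries, and black lines mark group means. CALD1 sits at 9872 to 12057 in WT and 25259.7 to 26221 in NUAK2-CR, while CNN1 and LMOD1 reach at most 113 in any library.

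**Figure D2:**
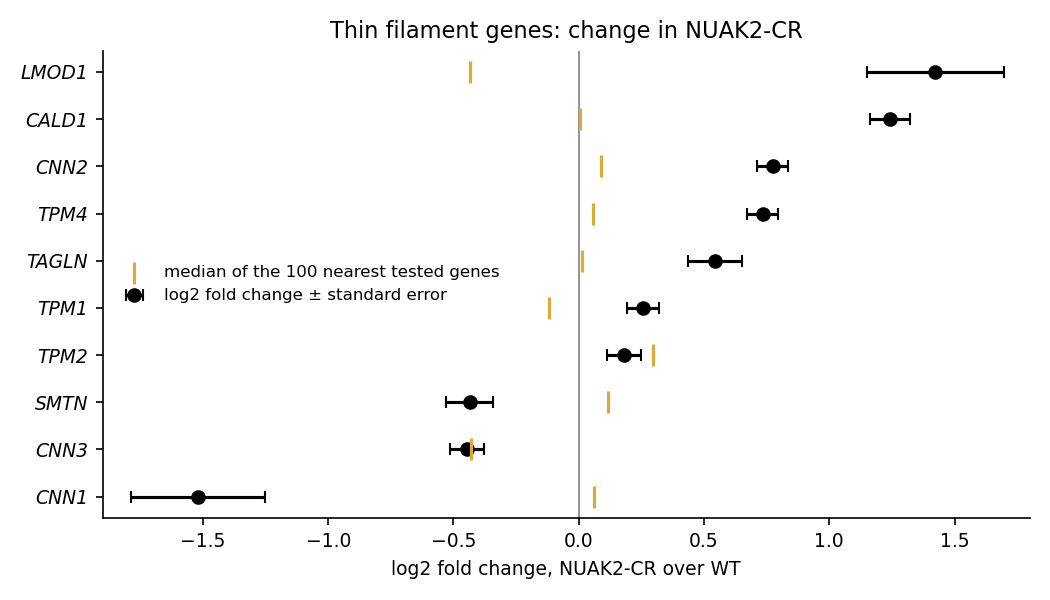
Log2 fold change of NUAK2-CR over WT for each gene (black points, bars show the standard error of edgeR's estimate) and the median log2 fold change of up to 100 nearest tested genes on the chromosome (yellow marks). LMOD1 at 1.42 and CNN1 at -1.52 are the extremes, and the value of CNN3 coincides with that of its neighbours.

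TPM4, a tropomyosin of non-muscle stress fibers and blood cells, had the largest rise of the family. TPM4 (gene 7171, GRCh38 chromosome 19, 16067538 to 16103002) had 25333, 26739 and 26574 normalized counts in the WT libraries, against 42966, 44150.5 and 43674 in the NUAK2-CR libraries, each in the order of their replicate numbers. Its group means were 26215 ± 769 (SD, n = 3) and 43597 ± 596 (SD, n = 3). Every NUAK2-CR library was well above every WT library, with a log2 fold change of 0.73 ± 0.06 (SE), with an adjusted p of 9.99e-07 in edgeR.

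TPM1, which encodes alpha-tropomyosin of striated and smooth muscle and several non-muscle isoforms, changed less. TPM1 (gene 7168, chromosome 15, 63042747 to 63071915) had 25306, 24739.9 and 26191 normalized counts in the WT libraries and 30971, 30922 and 29219 in the NUAK2-CR libraries. Its log2 fold change was 0.26 ± 0.06 (SE), with an adjusted p of 0.00453 in edgeR. The groups were separate, although the gap between them was small beside that of TPM4. TPM1 shares 2645 exon bases, 17.99% of its annotated exon length, with the antisense gene TPM1-AS, whose reads were not analysed here. Reads were counted with the default parameters of featureCounts, which do not use strand. The gene annotation is not given, so how reads over the shared bases were counted is not known.

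TPM2, which encodes beta-tropomyosin, had the smallest change of the 10 genes. TPM2 (gene 7169, chromosome 9, 35681993 to 35690056) had 9592, 10174 and 10315 normalized counts in the WT libraries, against 12015, 10999.9 and 11096 in the NUAK2-CR libraries. The lowest NUAK2-CR library exceeded the highest WT library only slightly. The log2 fold change was 0.18 ± 0.07 (SE), with an adjusted p of 0.037 in edgeR. Leaving out WT replicate 2, WT replicate 3 or any 1 of the NUAK2-CR libraries ended the call, with adjusted p-values of 0.0532 to 0.124 from the same test, and so did a replicate block (adjusted p of 0.05996 in edgeR). The 100 nearest tested genes on chromosome 9 had a median of 0.30, above the value of TPM2 itself.

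TPM3, the remaining human tropomyosin gene and not among the 10, moved the opposite way. TPM3 (gene 7170, chromosome 1, 154155308 to 154192100) had 25008, 25069.8 and 25442 normalized counts in the WT libraries, against 16738, 17574 and 16877 in the NUAK2-CR libraries, for a log2 fold change of -0.56 ± 0.06 (SE), with an adjusted p of 9.25e-06 in edgeR. Its 100 nearest tested genes had a median of -0.44.

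Shares within the family do not depend on how the libraries were scaled. Per kilobase of annotated exon, TPM4 made up 24.5% ± 0.33 (SD, n = 3) of tropomyosin counts in WT, against 34.2% ± 0.92 (SD, n = 3) after targeting. TPM3 went from 19.2% ± 0.33 to 11.0% ± 0.36 (SD, n = 3 each). For both, the groups did not overlap, and the exact two-sided permutation test gave p = 0.1, the smallest value that 3 libraries against 3 allow. The shares of TPM1 (19.96% and 20.08%) and TPM2 (36.4% and 34.7%) overlapped between groups, with exact permutation p-values of 0.6 and 0.2. The levels of these shares depend on the length used, because exons of all isoforms add up to 14.7 kb for TPM1 against 1.217 kb in its canonical transcript. With canonical lengths TPM1 made up 48.0% of the family in WT and 45.7% in NUAK2-CR, TPM4 24.4% and 32.3%, TPM2 19.4% and 17.5%, and TPM3 8.20% and 4.43%. Summed over the 4 genes, counts per kilobase of exon were 8661 ± 210.4 (SD, n = 3) in WT, against 10289 ± 171 (SD, n = 3) after NUAK2 targeting, a log2 ratio of 0.25 (exact permutation p = 0.1). Counts per gene do not resolve the many tropomyosin isoforms.

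The calponin genes split in direction, with CNN2 higher and CNN1 and CNN3 lower in NUAK2-CR. CNN2, a non-muscle calponin of stress fibers (gene 1265, chromosome 19, 1026608 to 1039065), had 10336, 9960.2 and 10150.5 normalized counts in the WT libraries, against 17209, 17269 and 17611 in the NUAK2-CR libraries. The libraries of each group lay close together and far from the other group, and the log2 fold change was 0.77 ± 0.06 (SE), with an adjusted p of 5.25e-07 in edgeR.

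CNN3, acidic calponin, is a form prominent in brain. CNN3 (gene 1266, chromosome 1, 94896957 to 94927110) had 32030.5, 35074 and 36178 normalized counts in the WT libraries, against 24405, 25426 and 25968 in the NUAK2-CR libraries. All NUAK2-CR libraries were below all WT libraries, for a log2 fold change of -0.45 ± 0.07 (SE), with an adjusted p of 0.000154 in edgeR. The median of its 100 nearest tested genes was -0.43, which left CNN3 at -0.02 relative to its neighbours.

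CNN1, the smooth muscle calponin and a standard marker of contractile smooth muscle, was scarce. CNN1 (gene 1264, chromosome 19, 11538851 to 11550323) had raw counts of 145, 105 and 81 in WT and 33, 26 and 24 in NUAK2-CR, or 94.9 ± 7.22 and 33.2 ± 7.94 (SD, n = 3 each) normalized counts. Its log2 fold change of -1.52 ± 0.27 (SE), with an adjusted p of 0.000393 in edgeR, was the largest fall among the 10 genes, from a low level. Of all tested genes, 92.4% had a smaller absolute log2 fold change.

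Per kilobase of exon, CNN3 made up 81.4% ± 1.19 (SD, n = 3) of calponin counts in WT, against 65.5% ± 0.51 (SD, n = 3) after targeting. CNN2 made up 18.4% ± 1.17 and 34.4% ± 0.49 (SD, n = 3 each). CNN1 was the remaining 0.221% ± 0.02 and 0.0848% ± 0.02 (SD, n = 3 each). None of these shares overlapped between groups (exact permutation p = 0.1 for each, the smallest possible). The family sum per kilobase was 15192 ± 735 (SD, n = 3) in WT, against 13861 ± 334 (SD, n = 3) after NUAK2 targeting. Its log2 ratio was -0.13 (exact permutation p = 0.1). With canonical transcript lengths the ratio was -0.09 (exact permutation p = 0.2), and without division by length -0.07 (exact permutation p = 0.3). In both of these the groups overlapped. No stretch of 100 bases, the read length, in a calponin transcript occurred in transcripts of any other annotated gene.

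**Figure D3:**
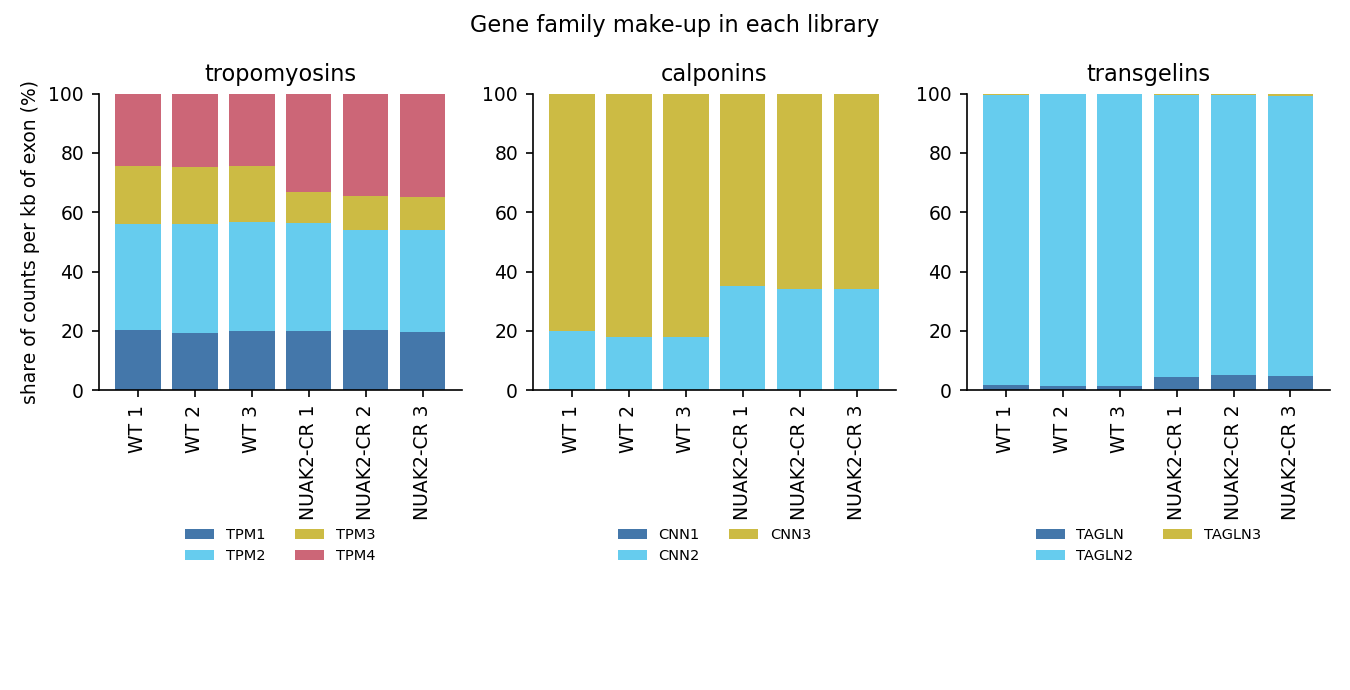
Share of each gene in the counts per kilobase of exon of its family, in percent, with a bar for each library. TPM4 (red) takes 24.3% to 24.8% in WT and 33.2% to 34.9% in NUAK2-CR, CNN2 takes 17.6% to 19.7% and 34.1% to 35.0%, and TAGLN 1.49% to 1.85% and 4.64% to 5.19%.

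TAGLN encodes transgelin, also called SM22-alpha, a calponin-related protein and early smooth muscle marker. TAGLN (gene 6876, chromosome 11, 117199294 to 117207465) had 2956, 2207 and 2433 normalized counts in the WT libraries, against 3373, 4122 and 3592 in the NUAK2-CR libraries. The WT library nearest to NUAK2-CR was replicate 1, the most deeply sequenced, and the groups did not overlap. The log2 fold change was 0.54 ± 0.11 (SE), with an adjusted p of 0.000918 in edgeR. It ranged from 0.45 without WT replicate 2 to 0.68 without WT replicate 1. TAGLN shares 2233 exon bases, 34.1% of its exon length, with PCSK7 on the opposite strand. How reads over these shared bases were counted was not examined. PCSK7, which encodes a proprotein convertase, had a log2 fold change of -0.37 ± 0.07 (SE), with an adjusted p of 0.000628 in edgeR, opposite in sign to TAGLN. An unnamed transcript on the same strand also overlaps TAGLN, and 35.0% of the 100-base stretches of TAGLN transcripts occur in it.

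TAGLN2, the transgelin of non-muscle cells, was far more abundant per length and fell. TAGLN2 (gene 8407, chromosome 1, 159918111 to 159925507) had 53955, 49410.4 and 55421 normalized counts in the WT libraries, against 23793, 25839.8 and 24536.5 in the NUAK2-CR libraries, for a log2 fold change of -1.10 ± 0.07 (SE), with an adjusted p of 7.84e-08 in edgeR. Its 100 nearest tested genes had a median of -0.49. TAGLN3, the neuronal form, had 118 to 170 normalized counts in WT and 107 to 152 in NUAK2-CR, for a log2 fold change of -0.18 ± 0.22 (SE), with an adjusted p of 0.515 in edgeR. TAGLN accounted for 1.62% ± 0.20 (SD, n = 3) of transgelin counts per kilobase of exon in WT, against 4.87% ± 0.29 (SD, n = 3) after targeting (exact permutation p = 0.1, the smallest possible). Summed over the transgelins, counts per kilobase were 23867 ± 1427 in WT and 11566 ± 513 in NUAK2-CR (SD, n = 3 each), which is a log2 ratio of -1.05.

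CALD1, caldesmon, which binds actin and tropomyosin and inhibits myosin, had the smallest p-value of the 10 genes. CALD1 (gene 800, chromosome 7, 134711499 to 134970729) had 9872, 12057 and 10817 normalized counts in the WT libraries, against 26221, 25259.7 and 25972 in the NUAK2-CR libraries. Each NUAK2-CR library held more than any WT library by a wide margin, and the log2 fold change was 1.24 ± 0.08 (SE), with an adjusted p of 7.11e-08 in edgeR. The median of its 100 nearest tested genes was near 0, at 0.004.

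SMTN encodes smoothelin. SMTN (gene 6525, chromosome 22, 31064118 to 31104624) had 3789.5, 3116 and 3305 normalized counts in the WT libraries, against 2636, 2712 and 2209 in the NUAK2-CR libraries. The groups did not overlap, and the log2 fold change was -0.44 ± 0.09 (SE), with an adjusted p of 0.00186 in edgeR. Its 100 nearest tested genes had a median of 0.12, opposite in sign.

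LMOD1, the leiomodin of smooth muscle, was at the bottom of the range in WT. LMOD1 (gene 25802, chromosome 1, 201896456 to 201946548) had raw counts of 59, 53 and 25 in WT and 76, 88 and 103 in NUAK2-CR, or 39.1 ± 12.1 and 105 ± 8.32 (SD, n = 3 each) normalized counts. The log2 fold change was 1.42 ± 0.27 (SE), with an adjusted p of 0.00078 in edgeR, and it ranged from 1.23 without WT replicate 3 to 1.64 without WT replicate 2. It rose within a part of chromosome 1 whose 100 nearest tested genes had a median of -0.43, the opposite of CNN3, TPM3 and TAGLN2 on the same chromosome. LMOD1 shares 536 exon bases, 13.6% of its exon length, with an unnamed noncoding gene on the opposite strand. How reads over these bases were counted is not known.

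Levels were compared between genes per kilobase only. With exons of all isoforms, CNN3 was the highest of the 10 genes at 12371 ± 772 (SD, n = 3) normalized counts per kilobase in WT, against 9079 ± 285 (SD, n = 3) after targeting. TPM2 followed in WT at 3150.2 ± 120.4 and CNN2 at 2788 ± 51.6 (SD, n = 3 each), while in NUAK2-CR CNN2 at 4770.1 ± 59.6 exceeded TPM2 at 3572 ± 176 (SD, n = 3 each). TPM2 and TPM4, at 3523 ± 48.2 (SD, n = 3), did not differ beyond their spread in NUAK2-CR. LMOD1 at 9.95 ± 3.09 and CNN1 at 33.4 ± 2.54 (SD, n = 3 each) were lowest in WT, and in NUAK2-CR they exchanged places, at 26.8 ± 2.12 and 11.7 ± 2.80 (SD, n = 3 each). With canonical transcript lengths, TPM1 was the highest of the 10 in both groups, at 20881 and 24955 normalized counts per kilobase, so the order among the abundant genes depends on the length and that of the scarce genes does not.

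**Figure D4:**
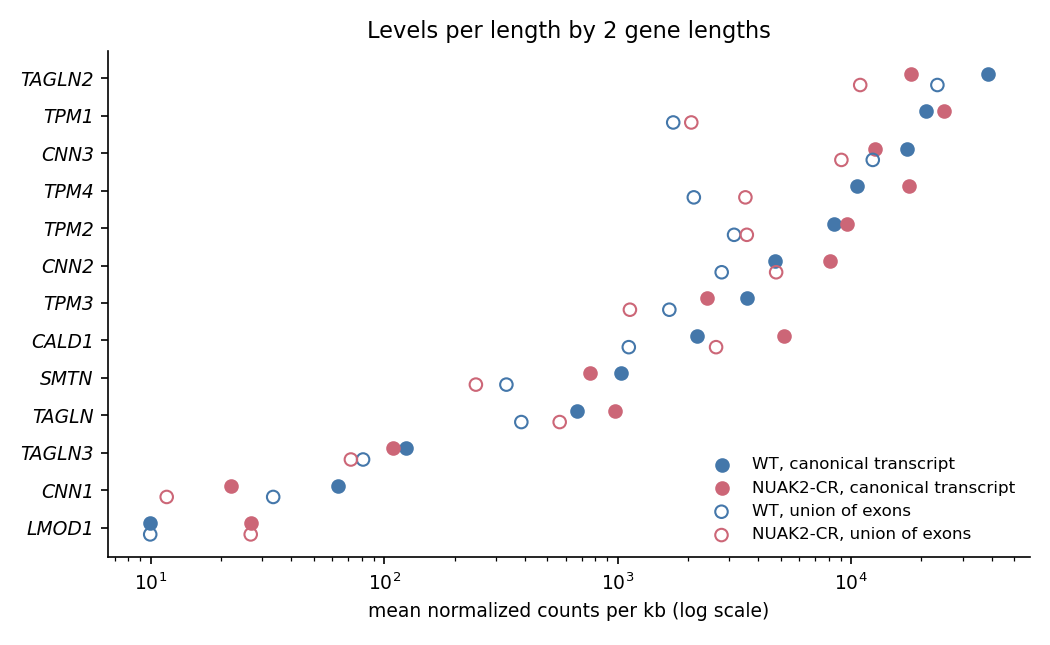
Mean normalized counts per kilobase on a log axis for the 10 thin filament genes and TPM3, TAGLN2 and TAGLN3. Filled circles use the canonical transcript length and open circles the union of exons, blue for WT and red for NUAK2-CR. The choice of length moves TPM1 most, from 1729 to 20881 in WT, while LMOD1 has the same length by both and stays at 9.95.

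The CArG box, the element bound by SRF, was searched in RefSeq promoter windows of 300 bases (GRCh38.p14), each from 250 bases before a transcript start to 50 after it. Windows were found for 9 of the 10 genes, 19 in all, and TAGLN had no entry. The motif reads the same on both strands. It occurred in 3 of the 9 genes, CNN2, TPM4 and SMTN, and in 1.60% of the 27305 genes with windows. By window it was 3 of 19, against 1.29% of 35116. The 250 bases before those starts are shown, with the box in capitals, because they mark 2 of the genes that rose and 1 that fell.
CNN2, chr19:1026358-1026607, plus strand: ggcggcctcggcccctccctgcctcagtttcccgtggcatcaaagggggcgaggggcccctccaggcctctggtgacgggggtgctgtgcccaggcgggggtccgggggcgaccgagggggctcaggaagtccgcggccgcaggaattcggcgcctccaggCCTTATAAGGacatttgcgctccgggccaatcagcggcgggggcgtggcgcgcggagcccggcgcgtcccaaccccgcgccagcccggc
TPM4, chr19:16067288-16067537, plus strand: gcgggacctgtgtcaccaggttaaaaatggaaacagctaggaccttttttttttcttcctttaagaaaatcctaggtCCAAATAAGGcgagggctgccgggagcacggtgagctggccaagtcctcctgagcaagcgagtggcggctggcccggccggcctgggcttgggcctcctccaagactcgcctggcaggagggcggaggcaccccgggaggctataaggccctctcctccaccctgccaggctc
SMTN, an internal start, chr22:31084746-31084995, plus strand: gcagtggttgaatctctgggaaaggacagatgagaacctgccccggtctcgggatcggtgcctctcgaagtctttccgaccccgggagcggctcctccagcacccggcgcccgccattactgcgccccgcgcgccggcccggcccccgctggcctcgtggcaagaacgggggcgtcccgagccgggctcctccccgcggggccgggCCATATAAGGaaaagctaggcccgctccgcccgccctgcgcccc
The box began 89 bases before the RefSeq start of its window in CNN2, 173 in TPM4 and 44 in SMTN. Of the bases shown, 22 in CNN2 and 23 in TPM4 lie in exons of the same gene in GENCODE. Only 1 of 3 TPM4 windows and 1 of 4 SMTN windows held it, and counts per gene do not show which start was used. The letters GGAATG on either strand, part of the TEAD recognition motif, occurred in windows of CALD1, CNN3, LMOD1 and SMTN, or 4 of 9 genes against 16.7% of all genes. The 9 genes have 19 windows, and by window the count was 5 of 19 against 14.0%. These matches describe letters and not bound sites.

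Other genes of the actin cytoskeleton were read from lists, whose counts stand beside the shares of all tested genes. The lists too were chosen with earlier results of these data known, so their counts are description only. Of 21 further thin filament genes, 11 were tested and 6 called, 1 higher and 5 lower in NUAK2-CR, with a median of -0.38. The share called was no different from the 54.5% of all tested genes. Beside TPM3 and TAGLN2, the tropomodulins TMOD1 and TMOD3, which cap the pointed end of the filament, were both lower. TMOD1 had a log2 fold change of -2.19 ± 0.19 (SE), with an adjusted p of 1.07e-06 in edgeR, and TMOD3 had -0.38. The tropomodulin genes TMOD2 (0.17, adjusted p of 0.0797 in edgeR) and TMOD4 (-0.58, adjusted p of 0.226 in edgeR) were not called. NEBL, which encodes nebulette, had -0.65, and the slow skeletal troponin gene TNNT1 was the member that rose, by 0.67. The striated muscle genes LMOD2, LMOD3 and TNNT2 had no count in any library.

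Among the actins, the smooth muscle isoforms ACTA2 and ACTG2 had log2 fold changes of 4.52 and 7.14 and the cytoplasmic ACTB 0.40, whereas the value of ACTG1 was -0.10 (edgeR, adjusted p of 0.244). ACTA2 rose from 93.0 to 2138 mean normalized counts, while CNN1, often named beside it as a smooth muscle marker, fell. Of 10 genes for myosin II chains and their kinase, 8 were tested and 5 called, near the background of 54.5%. MYH9, MYL12A and MYL6 were higher, with log2 fold changes of 0.77, 0.30 and 0.26, and MYLK (-0.61) and the scarce MYH14 (-4.23) were lower. SRF itself rose by 0.59 ± 0.06 (SE), with an adjusted p of 6.17e-06 in edgeR. Its coactivators MRTFA and MRTFB had values of -0.03 each, with adjusted p-values of 0.746 and 0.761 from edgeR, and MYOCD, the smooth muscle coactivator, had no count in any library.

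Of 15 cytoskeletal genes taken as SRF/MRTF targets, 13 were tested and 10 called, 8 higher and 2 lower, with a median of 0.51. Over all tested genes 54.5% were called, 26.3% higher and 28.2% lower, with a median of -0.01. The largest changes were those of the focal adhesion genes TGFB1I1 (1.15) and ZYX (0.71), the LIM-domain gene FHL2 (0.68) and the alpha-actinin gene ACTN1 (0.66). Of the 15 genes of actin filament turnover, 11 were called, 5 higher and 6 lower, against 54.5%, 26.3% and 28.2% of all tested genes. Their median was 0.06. GSN, the severing protein gelsolin, had 1.13, while PFN2 (profilin), CAPG and CAPZA1 (capping proteins) had -1.003, -0.77 and -0.76.

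**Figure D5:**
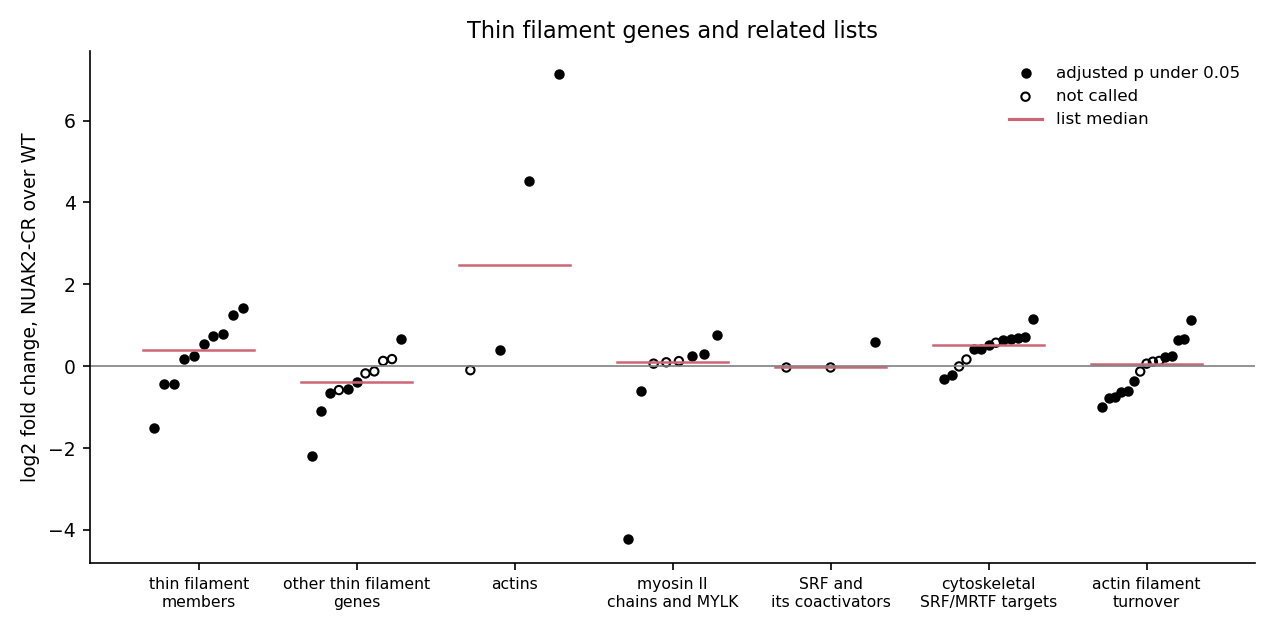
Log2 fold change of NUAK2-CR over WT for every tested gene of the thin filament genes and 6 related lists. Filled points had an adjusted p-value under 0.05, open points did not, and red lines mark medians, from -0.38 in the other thin filament genes to 2.46 in the 4 tested actins.

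Of 8 smooth muscle markers, 3 were tested and 2 called, ACTA2 and ACTG2, both higher in NUAK2-CR. Over all tested genes 54.5% were called, 26.3% of them higher and 28.2% lower as shares of all tested genes. The third tested marker, SYNPO2, had 71.7 mean normalized counts in WT and 107 in NUAK2-CR (edgeR, adjusted p of 0.0649). Over the 8 genes, summed CPM (counts scaled to the same total in every library) were 5.24 to 5.45 in WT and 166 to 182 in NUAK2-CR, carried by ACTA2 and ACTG2. The remaining 5 markers were near 0: MYOCD had no count, and MYH11, DES, KCNMB1 and PLN stayed under 1 CPM in every library. The list leaves out the thin filament genes above, whose smooth muscle members went both ways. By log2 fold change, TAGLN (0.54) and LMOD1 (1.42) rose, while CNN1 (-1.52) and SMTN (-0.44) fell. Of 11 skeletal and cardiac muscle markers none reached 1 CPM in any library. The astrocyte and glioma markers fell in the same libraries, from a sum of 8949 to 9946 CPM to 3976 to 4160 CPM, with 7 of 9 tested genes lower against 28.2% of all tested genes. Their part in the values of the thin filament genes was not tested.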

How the data were processed

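Total RNA was isolated with TRIzol, and libraries were prepared with a stranded mRNA kit and sequenced as 100-base paired reads. Per the labels and the study's methods, the authors used Trimmomatic, HISAT2 with hg38 and featureCounts, with default settings, which count without regard to strand; the gene annotation is not given in the sources used here. The deposited values are raw counts per gene. Of 28395 gene IDs, 27745 matched a RefSeq symbol. The members and lists were chosen with earlier results of these data known.

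Genes were filtered with filterByExpr, scaled by TMM and tested with edgeR 4.0.16 (glmQLFit, quasi-likelihood F test) in R 4.3.3, with Benjamini-Hochberg adjustment over 14873 genes and calls at an adjusted p-value under 0.05. Fold changes used a prior count of 0.125. The pipeline was tested on simulated data. Exon lengths came from GENCODE 44 by symbol. Named genes were the 10 members, NUAK2, genes needed for family shares, called genes of each list (the 4 with the largest change where over 6 were called) and the 5 genes nearest in profile to CNN1; any other gene named, the cell type markers among them, was chosen after its values were seen. Alternatives were DESeq2 1.42.0, other scalings and filters, a prior count of 2, a replicate block, each library left out, regional medians and other gene lengths. Regional medians used up to 50 tested genes on each side of a gene in chromosome order, and fewer near a chromosome end.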

Additional observations from a re-analysis of the deposited data

How the results depend on the processing

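Beside regional centring, the call of TPM2 was the only 1 of the 10 that changed under the alternatives tried. Without a low-count filter its log2 fold change was 0.17 (adjusted p = 0.0581) and with a replicate block 0.18 (adjusted p = 0.05996, edgeR); leaving out each library gave 0.16 to 0.21. The replicate block changed no other call of the 10 genes. Deviations of same-numbered libraries correlated at 0.04, -0.04 and 0.05, against -0.07 to 0.02 for differently numbered libraries. With 3 libraries per group these values show no clear pairing and cannot exclude it. Less the median of up to 100 nearest tested genes, TPM2 was -0.12, CNN3 -0.017, CNN2 0.69, TPM1 0.38, TPM4 0.68 and LMOD1 1.86. The cause of regional shifts was not tested. With an absolute log2 fold change over 1 in place of 2, 3 of the 10 genes passed. Changes in family share, in percentage points, depended on gene length. With the longest transcript they were -0.32 for TPM1, -7.21 for TPM3, 17.1 for CNN2, -16.9 for CNN3, 3.93 for TAGLN and -4.16 for TAGLN2. With canonical transcripts, chosen after seeing the data, they were -2.30 for TPM1, -3.77 for TPM3, 7.94 for TPM4, -0.180 for CNN1, 17.4 for CNN2 and -17.3 for CNN3. With no division by length they were -0.44 for TPM2, -12.3 for TPM3, 12.4 for TPM4, 17.9 for CNN2, -17.8 for CNN3, 8.38 for TAGLN and -8.56 for TAGLN2. The change of 0.11 for TPM1 ranged from -0.19 to 0.34 when each library was left out. CNN1 and LMOD1 rest on few counts, and the counting error of a library near 24 counts limits their precision.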

Other observations

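The tested genes whose profile over the 6 libraries lay nearest to that of CNN1, by Euclidean distance of log2 CPM (prior count of 2) less the WT mean, were NIM1K (distance 0.19), TMEM102 (0.27), TNIK (0.28), ENOX2 (0.29) and RAB11FIP4 (0.31). They were drawn from 13022 genes with a mean of at least 1 CPM, and their log2 fold changes lay from -1.54 to -1.39. None of them is a thin filament gene.

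Markers of other cell types were read at the same time, in a comparison where 26.3% of all tested genes were higher and 28.2% lower. Of 8 fibroblast markers, 4 rose and 3 fell, among them DCN at a log2 fold change of 5.97 and PDGFRA at -2.54. Of 5 tested pericyte markers, 2 were higher and 3 lower, with CSPG4 at 1.59 and KCNJ8 at -1.34. Summed endothelial markers stayed under 9 CPM in every library, with 2 of 5 genes higher and 1 lower. The immune markers AIF1 and CD3E had no count, and CD68 and CSF1R had log2 fold changes of -1.59 and -2.46.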
